A study of Mus musculus with 2 samples.

Results

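The 10 genes described here encode the catalytic and pseudouridine synthase subunits of telomerase (Tert, Dkc1), the shelterin proteins that coat telomeric DNA (Terf1, Terf2, Terf2ip, Tinf2, Acd, Pot1a, Pot1b) and the helicase Rtel1. They were taken by symbol from a list whose rule uses no measured value, though the list was drawn up with earlier results of these data known, and 10 of 10 were found among the 55421 genes of the deposited count table. All were read in mouse embryonic stem (ES) cells of the E14 line, 129/Ola background, carrying an Ago1 knockout and grown on gelatin with serum and leukaemia inhibitory factor (LIF). The study holds 1 group of 2 polyadenylated-RNA libraries, called KO1 and KO2 here, and no control library was used here. The labels say neither how the mutation was made nor whether KO1 and KO2 came from different clones or cultures, so what kind of replicates they are is not known. With 1 group there is nothing to test against, and all values below are descriptions.

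Telomeres are repeated sequences at chromosome ends, and they shorten when DNA is copied. Telomerase, a reverse transcriptase (TERT) working from an RNA template (Terc) held by the dyskerin complex, adds repeats back, and ES cells are known for keeping telomerase active. Shelterin hides the ends from the DNA damage response: TRF1 and TRF2 bind the double-stranded repeats, POT1 proteins bind the single-stranded overhang, and TIN2 and TPP1 bridge them. Mice carry a pair of Pot1 genes where most mammals have a single one.

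The libraries held 57048330 counts in KO1 and 54408708 in KO2. Ago1 itself, the targeted gene, kept 1497 counts in KO1 and 452 in KO2, 26.4 and 8.27 CPM (counts per 1000000 counts of the library, with TMM scaling). It was 3.18-fold higher in KO1 (log2 ratio of KO2 over KO1 -1.67, 95% interval -1.83 to -1.52), and -1.73 after the GC correction described below, so the libraries differed in the targeted gene beyond counting error. Counts per gene do not show which part of the gene was read, so they do not check the label. The 6 ES cell markers listed were all detected, from 175 to 976 CPM, summing to 3240 CPM in KO1 and 3696 CPM in KO2. Of 6 markers of fibroblasts, a usual feeder layer, only Thy1, which is found on other cell types too, was detected, at 20.4 and 23.9 CPM. Col1a1, Col1a2 and Col3a1 lay below 1 CPM, and neither library had any count for Lum or Postn. The fibroblast list summed to 21.2 and 25.3 CPM.

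Detection required 1 CPM or more in each library, a level that 24.1% of all genes in the table and 55.3% of protein-coding genes reached. By that rule 10 of 10 telomerase and shelterin genes were detected, from 16.1 CPM for Acd to 374 CPM for Dkc1. To compare genes with each other, counts were divided by exonic length and scaled to a fixed sum of 1000000 (TPM). In these bulk samples, a lower share of expressing cells and less RNA per cell cannot be told apart. The median of the 10 genes was 26.7 TPM, beside 20.1 TPM over 12148 detected protein-coding genes. The genes thus spread around the level of an ordinary expressed gene, with Dkc1 and Terf1 far above it and Terf2ip, Acd, Pot1b and Tert below it.

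**Figure D1:**
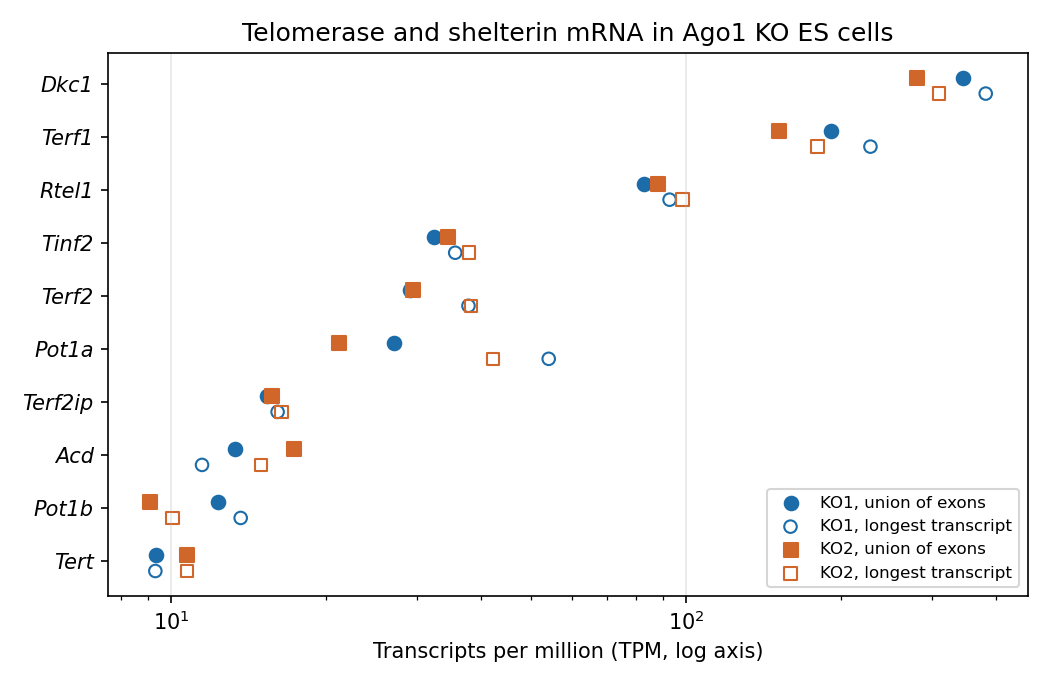
Level of each gene in TPM on a log axis, in KO1 (circles) and KO2 (squares), with lengths from the union of annotated exons (filled) or from the longest transcript (open). Dkc1 and Terf1 stand highest with either length, Terf2ip, Acd, Pot1b and Tert lowest, and Pot1a shifts most with the choice of length.

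Tert, the reverse transcriptase of telomerase, had the lowest mean level of the 10 per unit of length, although Pot1b was lower in KO2 and the pair overlapped. It had 869 counts in KO1 and 990 in KO2, which gave 15.3 CPM (95% exact Poisson interval 14.3 to 16.3) and 18.1 CPM (17.0 to 19.3). Its level was 9.32 TPM in KO1 and 10.7 TPM in KO2, with a mean of 10.03 ± 1.00 TPM (SD, n = 2). Of detected protein-coding genes, 33.4% had a lower mean TPM than Tert, so the transcript was present at a modest level and counted well. The gene (ENSMUSG00000021611) occupies bases 73626911 to 73649843 of chromosome 13 (plus strand) of GRCm38. Only 1 of its 7 annotated transcripts is classed as protein coding, and counts per gene do not separate that transcript from those annotated as retained introns or targets of nonsense-mediated decay.

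Dkc1 encodes dyskerin, the pseudouridine synthase that binds Terc as well as the small nucleolar RNAs guiding ribosomal RNA modification. It was the most abundant of the 10, reaching 23143 counts (KO1) and 18588 counts (KO2). Its level was 345 and 280 TPM, with a mean of 313 ± 45.8 TPM (SD, n = 2), and 464 detected protein-coding genes had a higher mean. Dkc1 mRNA was 37.0 times as abundant as Tert mRNA in KO1 and 26.1 times in KO2, so these mRNAs were far apart in both libraries. Dkc1 (ENSMUSG00000031403) occupies bases 75095854 to 75109777 of the X chromosome (plus strand).

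The start regions of the telomerase subunit genes are shown because these genes mark the ends of the level range. Each window runs 5′ to 3′ on the gene's strand, from 250 bases before the RefSeq start site to 50 after it (300 bases, GRCm38.p6). Tert is at chr13:73626661-73626960 (plus strand) and Dkc1 at chrX:75095604-75095903 (plus strand). Capitals mark letters that match, on either strand, any of 6 short motifs. The GC box is spelled GGGCGG and is read by SP proteins. The CCAAT box is spelled by its name and is read by NF-Y. The E-box searched for was CACGTG, which MYC and MAX proteins read. The core letters of an ETS factor site were taken as CCGGAAG, those of the cyclic AMP response element (CRE) as TGACGTCA, and those of a telomere repeat as TTAGGG.
Tert: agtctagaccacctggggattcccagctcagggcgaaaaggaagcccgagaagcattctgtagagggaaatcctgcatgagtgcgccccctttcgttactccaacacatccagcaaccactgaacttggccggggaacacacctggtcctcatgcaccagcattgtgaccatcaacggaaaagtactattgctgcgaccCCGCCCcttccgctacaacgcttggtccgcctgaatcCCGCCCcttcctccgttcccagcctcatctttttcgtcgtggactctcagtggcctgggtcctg
Dkc1: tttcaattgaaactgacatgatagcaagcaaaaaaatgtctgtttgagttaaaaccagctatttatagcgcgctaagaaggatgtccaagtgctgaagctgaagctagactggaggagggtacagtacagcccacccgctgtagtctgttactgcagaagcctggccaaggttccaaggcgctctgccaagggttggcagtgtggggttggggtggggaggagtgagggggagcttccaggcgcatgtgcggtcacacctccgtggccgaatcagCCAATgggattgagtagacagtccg
The Tert window held a pair of GC boxes, both on the reverse strand, beginning 51 and 14 bases before the start site, and no CACGTG. The Dkc1 window held 1 CCAAT box, 25 bases past the start site, and no GC box. GC boxes were found in 35.7% and CCAAT boxes in 37.4% of the 32851 windows listed for all genes, so neither feature is rare. CACGTG was in 7.15% of all windows and in 0 of the 9 windows searched for these genes, 1 per gene. Terf2 and Pot1b each have 2 windows listed, and only the one with the lower coordinate was searched. Terf1 has no window in the table used. A match describes letters only, and no binding was measured.

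Among the genes of proteins on double-stranded repeats, mRNA of Terf1 (TRF1) was far more abundant than that of Terf2 (TRF2). TRF1 is known for its part in telomere length control and replication, and its gene is known to be highly active in pluripotent cells. Terf1 had 14335 counts in KO1 and 11208 in KO2, or 191 and 151 TPM, a mean of 171 ± 28.3 TPM (SD, n = 2). That level exceeded that of 92.0% of detected protein-coding genes. Terf2, whose protein holds the telomeric loop and blocks end fusion, had 2179 and 2183 counts, 29.1 and 29.5 TPM, a mean of 29.3 ± 0.274 TPM. Terf1 was 6.56 times Terf2 in KO1 and 5.12 times in KO2, and the libraries did not overlap between the genes. Terf2 made up 14.8% ± 2.20 (SD, n = 2) of the TPM of the pair. In counts its share was 13.2% (95% exact binomial interval 12.7 to 13.7) in KO1 and 16.3% (15.7 to 16.9) in KO2, a gap wider than counting error. The direction of that gap turned with the GC correction, after which the log2 ratio of KO2 over KO1 was 0.12 for Terf1 and -0.09 for Terf2.

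Terf2ip, encoding RAP1, which is brought to telomeres by TRF2, was lower than its partner. It had 1239 counts in KO1 and 1249 in KO2, or 15.4 and 15.7 TPM, a mean of 15.5 ± 0.213 TPM (SD, n = 2). Terf2 was 1.90 times Terf2ip in KO1 and 1.89 times in KO2, the steadiest ratio of the pairs compared without the GC correction. With it, the log2 ratio of KO2 over KO1 was -0.09 (-0.18 to -0.01) for Terf2 and 0.17 (0.05 to 0.28) for Terf2ip. Terf1 (ENSMUSG00000025925) occupies bases 15805646 to 15844052 of chromosome 1 (plus strand). Terf2 (ENSMUSG00000031921) occupies bases 107069400 to 107096547 of chromosome 8 (minus strand). Terf2ip (ENSMUSG00000033430) occupies bases 112011398 to 112020528 of chromosome 8 (plus strand).

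The mRNAs of the bridging proteins were at unequal levels. Tinf2 (TIN2), which joins TRF1, TRF2 and TPP1, had 2598 counts in KO1 and 2736 in KO2, or 32.3 and 34.4 TPM, a mean of 33.4 ± 1.49 TPM (SD, n = 2). Acd (TPP1), which recruits telomerase and carries POT1, had 783 and 1008 counts, or 13.3 and 17.3 TPM, a mean of 15.3 ± 2.83 TPM. Tinf2 was 2.44 times Acd in KO1 and 1.99 times in KO2. Both genes lie partly under neighbours on the other strand. Of the Tinf2 exonic bases 31.2% are also exon of Gmpr2 (25.5 ± 0.249 CPM), and of the Acd exonic bases 33.3% are also exon of Carmil2 (7.42 ± 1.88 CPM). The libraries were made with a strand-keeping protocol per the labels, but no source here says whether the counting used the strand, so these levels are less certain than the others. Among the remaining members, Dkc1 with Mpp1 (46.1 ± 2.44 CPM) shared 1.09% of its exonic bases and Terf2ip with Gm6793 (0.258 ± 0.132 CPM) 2.18%, both on opposite strands. Tinf2 (ENSMUSG00000007589) lies on chromosome 14 from 55674689 to 55681820 and Acd (ENSMUSG00000038000) on chromosome 8 from 105695860 to 105701102, both on the minus strand.

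Of the single-strand binding pair, Pot1a was the more abundant in both libraries. In mice POT1A is known to hold back the damage response at chromosome ends, and POT1B to limit resection of the C-rich strand. Pot1a had 3826 counts in KO1 and 2952 in KO2, or 27.1 and 21.2 TPM, a mean of 24.1 ± 4.21 TPM (SD, n = 2). Pot1b had 1057 and 771 counts, or 12.3 and 9.09 TPM, a mean of 10.7 ± 2.29 TPM. Pot1b made up 21.6% (95% exact binomial interval 20.5 to 22.8) of the counts of the pair in KO1 and 20.7% (19.4 to 22.0) in KO2. The proportion of counts thus held between the duplicates while both genes were lower in KO2. After the GC correction only Pot1b stayed lower beyond counting error. The log2 ratio of KO2 over KO1 was then -0.02 (-0.09 to 0.05) for Pot1a and -0.18 (-0.32 to -0.05) for Pot1b. Per unit of length the Pot1b share was 30.7% ± 0.844 (SD, n = 2) with the union of exons and 19.7% with the longest transcript. The exon union of Pot1a, 8669 bases, is long for a longest transcript of 3271 bases, so the share depends on the length used. Pot1a (ENSMUSG00000029676) lies on chromosome 6 from 25743737 to 25809246 and Pot1b (ENSMUSG00000024174) on chromosome 17 from 55651951 to 55712628, both on the minus strand.

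Counts of such a duplicated pair are usable only where reads can be told apart, so their coding sequences were compared. Both run to 1923 bases, and of 1920 aligned bases 78.9% were identical. The longest identical run was 41 bases, and 0 of the 1874 stretches of 50 bases in the Pot1b coding sequence occurred in that of Pot1a. The first pair of lines, coding bases 1 to 60, shows the usual density of differences. The other pair, coding bases 459 to 518, is the stretch around the longest identical run. Both are from GENCODE M21 transcripts and are shown 5′ to 3′, and capitals mark bases that differ between the genes.
Pot1a: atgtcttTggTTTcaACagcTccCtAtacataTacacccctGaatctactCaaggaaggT
Pot1b: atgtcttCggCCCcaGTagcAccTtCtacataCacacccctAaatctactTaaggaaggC
Pot1a: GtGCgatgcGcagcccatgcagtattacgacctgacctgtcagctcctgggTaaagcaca
Pot1b: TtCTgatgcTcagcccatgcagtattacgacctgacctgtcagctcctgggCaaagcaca
The genes differed at 13 of the first 60 coding bases and at 5 of the 60 around the longest identical run. Terf1 and Terf2 were further apart, with 64.6% identity over 1220 aligned coding bases and a longest identical run of 17 bases. Over longest transcripts, the share of 50-base stretches also found in the same direction in a transcript of any other gene was 0% for Terf2, Tinf2, Acd, Pot1a and Rtel1. It was highest for Terf1, at 2.80%, and 1.47% for Pot1b. In the opposite direction it was 31.4% for Tinf2, shared with Gmpr2, and 26.02% for Acd, shared with Carmil2, the overlaps given above.

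The start regions of the Pot1 pair were also set side by side, since the genes differ in level and sit on different chromosomes. Pot1a is at chr6:25809169-25809468 and Pot1b at chr17:55712575-55712874, both on the minus strand, GRCm38.p6 (RefSeq), with capitals for the same letters as above.
Pot1a: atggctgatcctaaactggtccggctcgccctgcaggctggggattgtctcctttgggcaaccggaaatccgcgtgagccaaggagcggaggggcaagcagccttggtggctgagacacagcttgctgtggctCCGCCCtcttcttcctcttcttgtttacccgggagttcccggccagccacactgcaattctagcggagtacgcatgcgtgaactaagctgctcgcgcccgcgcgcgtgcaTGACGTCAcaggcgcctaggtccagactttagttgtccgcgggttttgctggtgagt
Pot1b: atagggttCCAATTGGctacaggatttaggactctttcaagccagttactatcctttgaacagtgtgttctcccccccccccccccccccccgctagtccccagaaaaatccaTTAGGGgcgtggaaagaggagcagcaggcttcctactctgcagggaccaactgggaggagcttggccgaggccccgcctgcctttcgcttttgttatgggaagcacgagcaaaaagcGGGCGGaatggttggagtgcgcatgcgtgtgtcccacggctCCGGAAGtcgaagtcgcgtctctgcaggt
RefSeq lists a further window for Pot1b, and the one with the lower coordinate is shown. Both windows held 1 GC box. The Pot1a window held the CRE letters TGACGTCA 7 bases before the start site, and the Pot1b window did not. The Pot1b window held an ETS core, overlapping CCAAT letters on opposite strands, and 1 TTAGGG, which 10.6% of all windows hold. The Tinf2 window held TGACGTCA too, 56 bases before the start site, making 2 of the 9 windows searched, where 1.79% of all windows hold it. ETS cores were in 4 of the 9 (Terf2ip, Tinf2, Pot1b and Rtel1), beside 8.86% of all windows. GC boxes were in 6 of the 9 and CCAAT boxes in 4, beside 35.7% and 37.4% of all windows. The windows of all genes include genes not detected here, and enrichment was not tested. The motifs were chosen with these sequences in view.

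Over the 7 shelterin genes, Terf1 made up 56.96% ± 3.74 (SD, n = 2) of the summed TPM. Tinf2 followed at 11.2% ± 1.62, Terf2 at 9.84% ± 1.08, Pot1a at 8.03% ± 0.603 and Terf2ip at 5.21% ± 0.592. Acd made up 5.17% ± 1.46 and Pot1b 3.56% ± 0.408. The bar plot of these shares shows the same ranking of Terf1 in each library and with each length. With the longest transcript in place of the exon union Terf1 stood at 55.2%, and Pot1a at 13.0%. These are shares of mRNA and do not give the make-up of the protein complex.

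**Figure D2:**
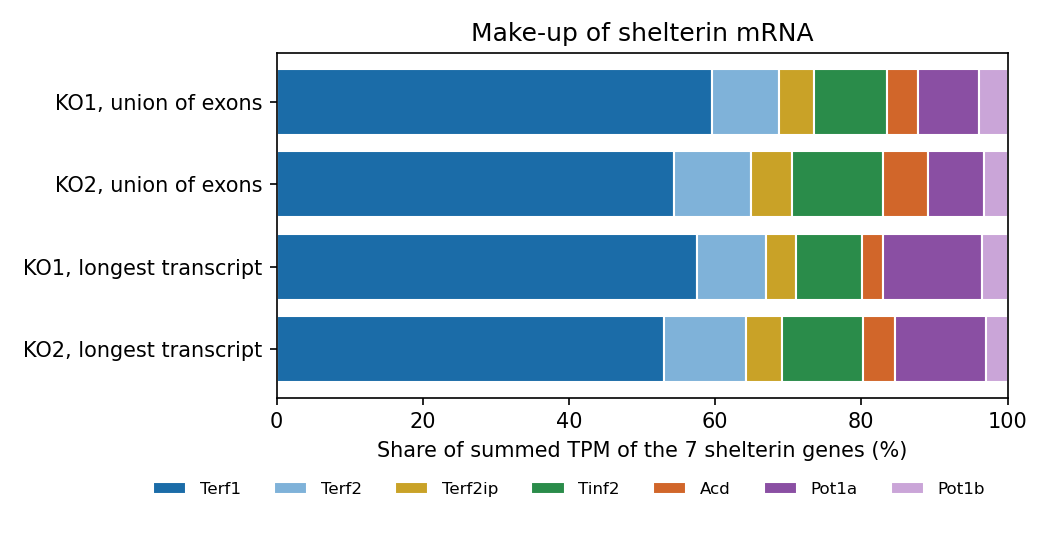
Share of each shelterin gene in the summed TPM of the 7 genes, in percent, for KO1 and KO2 and for both measures of length. Terf1 takes more than any other gene in all 4 bars, from 53.0% to 59.6%.

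Rtel1, a helicase that opens telomeric loops and clears secondary structures ahead of the replication fork, was the third most abundant gene. It had 8931 counts in KO1 and 9376 in KO2, or 82.9 and 88.1 TPM, a mean of 85.5 ± 3.63 TPM (SD, n = 2), more than 83.2% of detected protein-coding genes. It was 8.90 times Tert in KO1 and 8.20 times in KO2. Rtel1 (ENSMUSG00000038685) occupies bases 181319739 to 181356616 of chromosome 2 (plus strand), and no other gene shares its exons in the annotation.

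In mean TPM the order was Dkc1, Terf1, Rtel1, Tinf2, Terf2, Pot1a, Terf2ip, Acd, Pot1b and Tert. With the union of exons, neighbours whose libraries overlapped were Terf2ip with Acd, and Pot1b with Tert, and these pairs did not differ beyond their spread. With the longest transcript Terf2ip exceeded Acd 1.23-fold without overlap, while Acd overlapped with Pot1b, and Pot1b still with Tert. The steps from Dkc1 to Terf1 (1.83-fold), Terf1 to Rtel1 (2.00-fold) and Rtel1 to Tinf2 (2.56-fold) were the clearest, with no overlap. Tinf2 exceeded Terf2 by only 1.14-fold, and with the longest transcript as length these overlapped and both lay below Pot1a. The first 3 places and the last 4 were the same with both lengths.

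The duplicates were compared as the ratio of KO2 to KO1, with an exact binomial 95% interval that covers counting error only. No gene of the 10 had its whole interval beyond 2-fold, where 0.98% of 15619 genes with at least 50 counts lay beyond it upward and 0.0768% downward. The widest gaps were at Acd, 1.34-fold higher in KO2 (log2 ratio 0.42, interval 0.28 to 0.56), and Pot1b, 1.32-fold higher in KO1 (-0.40, -0.53 to -0.26). Intervals lay wholly above equality for Tert, Tinf2, Acd and Rtel1 (background 34.3% of genes). With DESeq2 size factors the Tinf2 interval, -0.00332 to 0.153, included equality. They lay wholly below it for Dkc1, Terf1, Pot1a and Pot1b (background 31.2%). Terf2 and Terf2ip, at log2 ratios of 0.06 and 0.07, had intervals that included equality. The median size of the log2 ratio was 0.25 for the 10 genes and 0.28 for all genes with a GC value, so these genes differed between the libraries about as much as others did.

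Which genes were higher in which library followed the base composition of their transcripts. GC content of the longest transcript ran from 36.5% in Terf1 to 57.01% in Acd. The 4 genes lower in KO2 were the 4 with the lowest GC content, Terf1, Pot1a (42.2%), Dkc1 (43.6%) and Pot1b (44.8%), and the 6 at or above 47.7% had ratios above 0. Across the 10 genes the Spearman correlation of ratio with GC content was 0.855, and across 15603 genes 0.811. The genes share both libraries and are not independent replicates.

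The ratios were therefore also read after a loess correction for GC content. The median size of the log2 ratio fell to 0.11 for the 10 genes and 0.12 for all. The correction curve was fitted to these same ratios, members included, so a smaller size over all genes follows from the fit. Tert at -0.02, Dkc1 at -0.00359 and Pot1a at -0.02 then had intervals that included equality, as had Acd at -0.12 (-0.26 to 0.02). Terf1 at 0.12, Terf2ip at 0.17 and Tinf2 at 0.22 lay wholly above equality, as 19.8% of genes did. Terf2 at -0.09, Pot1b at -0.18 and Rtel1 at -0.07 lay wholly below it, as 20.5% did. No member lay beyond 2-fold, beside 0.167% of genes upward and 0.0961% downward. Pot1b was lower in KO2 and Tinf2 higher both with and without the correction, whereas Terf1 and Rtel1 changed sides. The longest transcript was longer than any protein-coding one for Terf1, Tinf2, Pot1a, Pot1b and Rtel1. For Terf1 it had 2908 bases, beside 2268, and a GC content of 36.5%, beside 45.5% in the coding sequence. The correction was not repeated with other transcripts, so whether Terf1 would change sides with them was not tested.

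**Figure D3:**
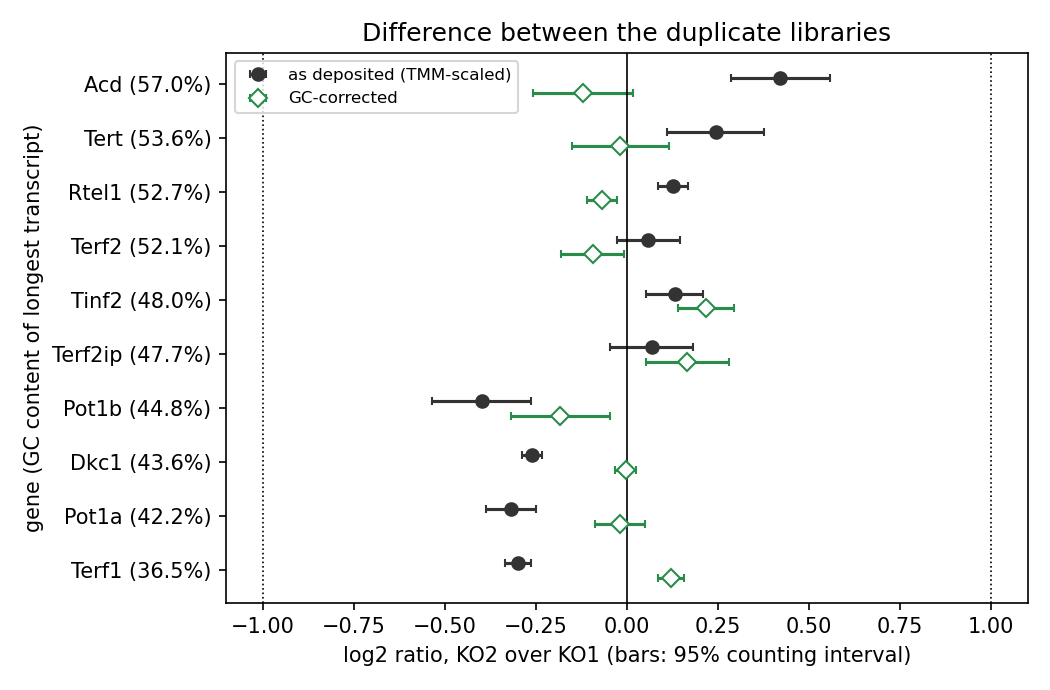
Log2 ratio of KO2 over KO1 for each gene, ordered by GC content of the longest transcript, with 95% counting intervals as bars. Filled points are TMM-scaled values and open diamonds the same after GC correction; dotted lines mark 2-fold, which no interval reaches.

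Beyond the 10, 49 genes in 5 lists cover the wider telomere pathway, of which 48 were detected and 0 lay beyond 2-fold between the duplicates. Among all protein-coding genes 55.3% were detected, which is the background for each list count below. Only 0.98% of genes with at least 50 counts lay beyond 2-fold upward and 0.0768% downward, so 0 is near the background. Of 13 telomerase assembly genes 12 were detected. The ATPase genes Ruvbl1 and Ruvbl2, which help to assemble the telomerase particle, led that list in CPM at 218 ± 16.5 and 185 ± 86.1 (SD, n = 2). Ruvbl2, of whose exonic bases 10.7% are also exon of Gys1 on the other strand, was 1.98-fold higher in KO2 and has a transcript GC content of 57.9%, and its log2 ratio was 0.99 without and 0.37 with the GC correction. Wrap53, which brings telomerase to Cajal bodies, was the lowest detected member in mean CPM, at 29.5 ± 6.45. Its libraries, at 24.9 and 34.1 CPM, lay on either side of the next lowest gene, at 29.8 CPM in both. Per unit of length Wrap53 was not the lowest, at 49.1 ± 9.80 TPM beside a list median of 52.7 TPM. Terc had 0 counts in both libraries, which allows up to 0.0528 CPM in KO1 and 0.0549 CPM in KO2. Mature Terc has no poly(A) tail, and polyadenylated RNA was sequenced, so this 0 is not taken as its level. This limit, like the intervals, leaves out all error but that of counting, as PCR copies are not independent molecules.

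For the CST complex, which binds single-stranded telomeric DNA and ends telomerase action, mRNA of 3 of 3 subunits was detected. Ctc1 was at 54.5 ± 5.77 TPM, Stn1 at 22.3 ± 0.472 TPM and Ten1 at 8.51 ± 1.46 TPM (SD, n = 2). In mean TPM Ten1 was thus a little below Tert, though the libraries of these genes overlapped, and Ctc1 lay between Tinf2 and Rtel1. All 17 genes of proteins that meet shelterin or process telomeres were detected. Rif1, a regulator of replication timing that also acts with 53BP1 at unprotected ends, led at 903 ± 223 CPM. Tnks2, a tankyrase that modifies TRF1, followed at 477 ± 91.4 CPM. The lowest in CPM were Zbtb48, which binds telomeric repeats directly, at 8.89 ± 3.71, and Fbxo4, a ubiquitin ligase subunit acting on TRF1, at 1.29 ± 0.218 with 144 counts in all. Per unit of length Rif1 was at 297 ± 78.8 TPM, near Dkc1, and Tnks2 at 158 ± 33.3 TPM, near Terf1.

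Genes of telomeric chromatin and telomeric RNA were detected in 7 of 7 cases. Hnrnpa1, an RNA-binding protein able to bind telomeric repeats, was at 1406 ± 63.9 CPM and Atrx, the remodeller that places histone H3.3 at telomeres, at 341 ± 68.5 CPM (SD, n = 2). Zscan4c and Zscan4d, linked to telomere lengthening by recombination in ES cells, were the lowest at 2.09 ± 0.387 and 1.99 ± 0.541 CPM. Zscan4 genes are near-identical copies, and no source here says how reads shared by them were treated. All 9 genes listed here as Tert promoter factors were detected, and whether each acts on that promoter in these cells was not tested. Ctnnb1 at 992 ± 33.8 and Sp1, which binds GC boxes, at 471 ± 63.9 led them in CPM. Gabpb1 at 57.6 ± 8.25 CPM and Mxd1, a partner of MAX that opposes MYC, at 6.85 ± 0.722 CPM were the lowest. The median log2 ratio of the 5 lists ran from -0.13 for genes of proteins that meet shelterin to 0.26 for CST, and from -0.08 to 0.03 after the GC correction, beside 0.00978 and -0.00794 for all genes.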

How the data were processed

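Polyadenylated RNA was sequenced from 2 Ago1 knockout samples (TruSeq RNA kit, reverse-stranded, per the labels' protocols). The authors deposited 1 table of raw read counts per Ensembl gene. GRCm38 is the build named in the submitters' processing notes, and no aligner, counter, counting strand or annotation release is given in the sources used here. Total counts were 57048330 and 54408708.

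GENCODE M21 gave symbols, positions, lengths and longest-transcript GC content (181 identifiers unmatched). Start-site windows were from RefSeq (GRCm38.p6) and matched 9 of 10 members, with 1 window used per gene. CPM used TMM factors from edgeR 4.0.16 in R 4.3.3. TPM used the union of exons. Ratios had a prior count of 0.5, a summed count of at least 50 and, as an alternative, a loess GC correction (span 0.3, statsmodels 0.14.6). With 1 group no test was made. Alternatives covered library size, DESeq2 1.42.0 size factors, lengths, thresholds and each library alone. The ratio rule and GC correction were also run on simulated counts, with and without a straight GC trend. Those counts held counting error only, unlike real libraries, so they do not show how well the correction works on these data. Overlaps used bedtools 2.31.1, alignments biopython 1.88, and other steps python 3.11.15, scipy 1.17.1 and pandas 2.3.3.

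The members and lists were chosen with earlier results of these data known. The rule for naming genes took all 10 members, the 2 highest and 2 lowest of each related list by mean CPM, members with under 50 counts or beyond 2-fold, genes overlapping a member, and Ago1.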

Additional observations from a re-analysis of the deposited data

How the results depend on the processing

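No paired analysis was possible because both libraries are of 1 group. The length of the longest protein-coding transcript was added after seeing the data. The 10 detected members stayed at 10 with CPM minimums of 0.5 and 5, with any count, without TMM and with each library alone, and the 48 related genes detected became 45 at 5 CPM. The Pot1b share of 30.7% was 19.7% with the longest transcript, 19.4% with the longest protein-coding transcript and 21.2% with no length scaling, and ran from 30.1% to 31.3% with each library alone. The Terf2 share moved by less than 1 SD. The count of members past the size rule was 0 at 2-fold and 1.5-fold, and 8 where the interval had only to exclude equality, which follows from the threshold. Over all genes with at least 50 counts, 34.3% had intervals wholly above equality and 31.2% wholly below it. The GC correction turned the sign of 5 log2 ratios at span 0.3, span 0.6 and with a further length correction. All of these used GC content of the longest transcript. Tert came to -0.0176, -0.0286 and -0.0223, Terf1 to 0.12, 0.15 and 0.11, Acd to -0.12, -0.12 and -0.13, and Rtel1 to -0.068, -0.0797 and -0.072. Terf2, whose interval included equality without the correction, went from 0.06 to -0.09, -0.11 and -0.10. DESeq2 size factors were 1 for both libraries, which leaves their depths unscaled, and the Tinf2 interval then included equality (-0.00332 to 0.153). The median log2 ratio of unscaled counts was 0 over 24801 genes counted in both libraries, 1698 of them with equal counts, and -0.05 over the 15618 with at least 50 counts. A mean of 2 libraries has both inside 1 SD whatever their values, so values from each library alone say nothing about stability.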

Other observations

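Of the 10 genes, 3 shelterin genes lie within 6.32 Mb of chromosome 8, from the start of Acd at 105695860 to the end of Terf2ip at 112020528, with Terf2 between them. Their log2 ratios between the duplicates, 0.42 for Acd, 0.06 for Terf2 and 0.07 for Terf2ip, were all above 0, and after the GC correction they were -0.12, -0.09 and 0.17. Without the correction the Terf2 and Terf2ip intervals included equality, and 7959 of 15603 genes had ratios above 0. GC content of the 9 start regions searched ran from 48.0% at Acd to 60.7% at Pot1a, beside a median of 52.7% over all windows. The Tinf2 window held 24 CpG dinucleotides, the most of the 9, and the Acd window 7, the fewest.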
